A study of Mus musculus with 15 samples.

Results

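The genes described here are the transcripts of the cell cycle and of mitosis, measured in hearts of adult C57BL/6 mice that had received methamphetamine (meth) or its vehicle for 5 months. They were taken as a list of 50 symbols, and a gene was used when an array probe carried an accession that the RefSeq gene table pairs with that symbol. Of the 50 listed genes, 47 had a probe, out of 18350 named genes on the array. No probe was matched to Ccnd1 (cyclin D1), Rrm2 (a ribonucleotide reductase subunit) or Prc1 (a central spindle protein), so no level of these genes was analysed here. Mice were 8 to 10 weeks old at the start and were injected into the abdomen once per week for 20 weeks, with the dose raised by 2 mg per week to a final 40 mg/kg, and control mice were injected with phosphate-buffered saline (PBS) on the same schedule. All animals were wild type, and each array held heart RNA of 1 mouse. The 4 groups were male meth (n = 4), male PBS (n = 4), female meth (n = 4) and female PBS (n = 3). By the sample titles the males came from 2 separate trials with 2 meth and 2 PBS arrays in each, and the females came from the first trial.

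A cell that divides passes from G1, where D and E cyclins with Cdk4 and Cdk2 release the E2F factors, through DNA replication in S phase, into mitosis, which Cdk1 with cyclins A and B starts and the anaphase-promoting complex ends. Cyclin-dependent kinase inhibitors hold cells out of this cycle. Most cardiomyocytes of the adult mouse heart have left the cycle, and dividing cells there are mostly of other kinds, such as endothelial cells, fibroblasts and immune cells. Transcripts of mitosis are made in a narrow part of the cycle, so in whole tissue their level follows both the share of cells that are dividing and the RNA in each, and the arrays cannot tell fewer cells of a kind from less RNA per cell.

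Levels below are the log2 of the scanner's processed signal minus the same array's 75th percentile, so 0 is the brightness of a fairly bright probe and a difference of 1 is a doubling. A probe was called detected where the scanner software marked it well above background, which held for 61.4% to 71.4% of probes per array. The defining cardiomyocyte markers were detected in all groups, with a median level of 8.53 to 9.14 on every array. Transcripts of secretory airway cells also moved with the treatment in males, and less so in females. Their median level was 1.80 to 4.57 on the male meth arrays, -5.89 to -4.54 on the male PBS arrays, -3.03 to -0.25 on the female meth arrays and -4.51 to -4.36 on the female PBS arrays. All 7 tested markers of that list were higher in male meth hearts at an adjusted p of at most 0.05. In female meth hearts 1 of the 7 was, with a list median log2 fold change of 0.39 and a range from -1.48 to 4.77. Over all genes 1.34% passed that threshold in males and 0.443% in females, in either direction. Only 3 of the 7 markers were detected on every array. The markers Bpifa1, Muc5b and Tff2 were detected on no male PBS array, so their male fold changes are uncertain. Tff2 was detected on male meth arrays alone, the hearts where it was high. The female meth arrays 3 and 4 and the female PBS array 3 shared a slide that was brighter than the others.

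Of the 47 genes with a probe, 43 were tested, which required detection on at least 3 of the 15 arrays, and 35 were detected on all 15. The brightest probes of Cdk2, Cdc25c (the phosphatase that activates Cdk1) and Cdkn2a (the locus of the inhibitor p16) were not well above background on any array (a dimmer Cdk2 probe was on 1), and that of Ccnb1 (cyclin B1) on only 1, a female PBS array. Aurkb was detected on 3 arrays and Kif11 on 5, none of them male PBS arrays, and neither Kif11 nor Ccnb1 was detected on any male array.

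In male hearts most of the cell cycle genes had higher levels with meth, though few by enough to pass the test across all genes. In males 37 of the 43 tested genes had a higher mean in meth than in PBS hearts, against 44.9% of all 14217 genes tested. The members' median log2 fold change was 0.32, against -0.02 over all genes. Only 1 member was past the adjusted threshold of 0.05, Bub1b, against 1.34% of all genes in either direction. At an unadjusted p of at most 0.05, 22 members were higher and 1 was lower, where the shares over all genes were 7.34% and 5.84%. In 20 members every male meth array was above every male PBS array, where that held for 5.81% of all genes, and in no member was every male meth array below, against 5.75%. For each of those 20 genes the two-sided exact permutation p was 0.0286, the smallest that 4 arrays against 4 allow. Any gene without overlap has this p, so it restates the count and adds nothing to it. The 43 include genes detected mainly in the hearts where they were high, so the counts were repeated on the 35 members detected on all 15 arrays. Of these, 30 had a higher mean in male meth hearts and 16 had arrays that did not overlap, where the shares over all genes so detected were 43% and 5.47%, and their median log2 fold change was 0.27. The difference of each gene is drawn in the chart of fold changes in both sexes.

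**Figure D1:**
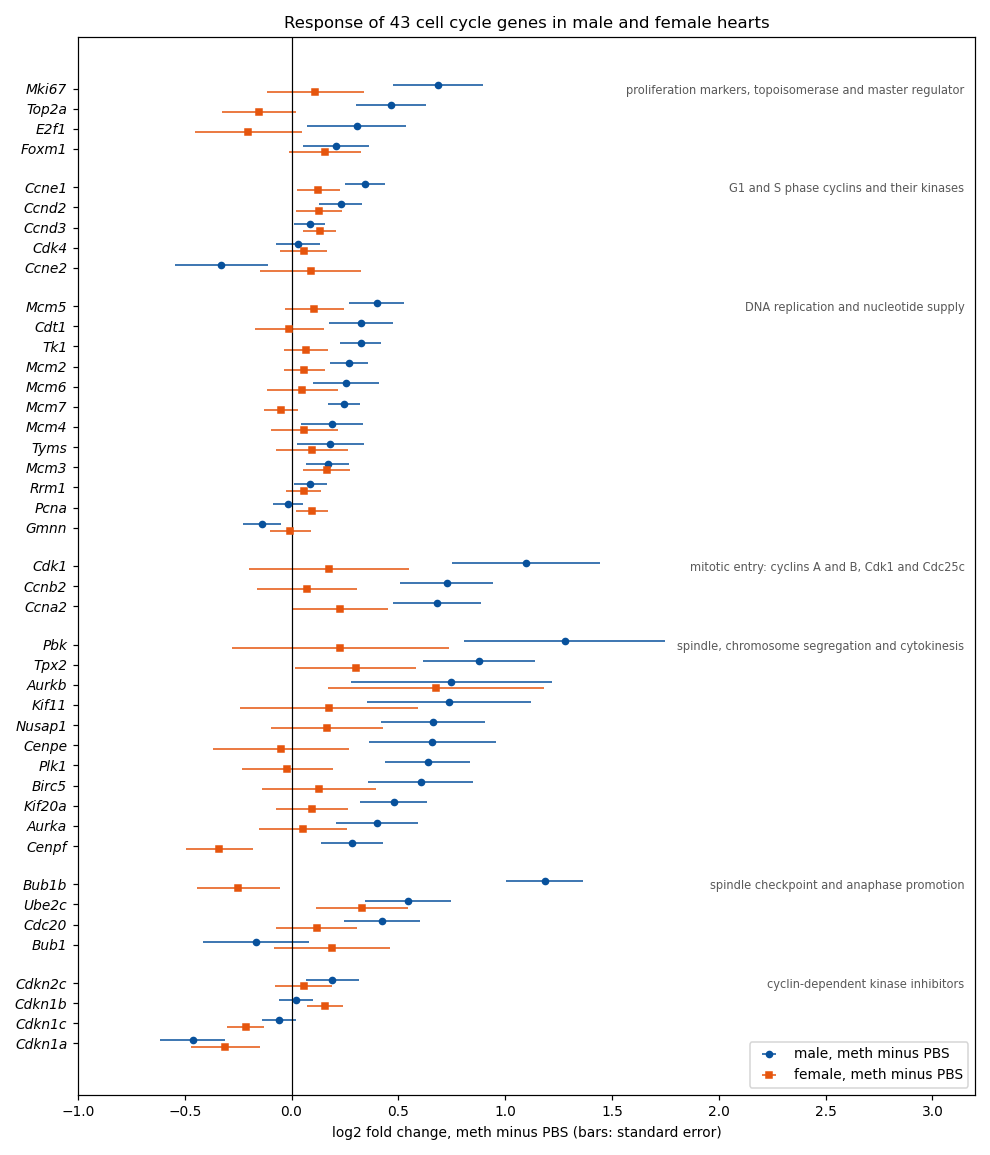
Log2 fold change of the 43 tested cell cycle genes, meth minus PBS, in male hearts (blue circles) and female hearts (orange squares), with bars for the standard error of the fit, grouped by role. The mitotic genes lie to the right of 0 in males apart from Bub1, while most female values lie close to 0. Aurkb and Kif11 were at background on all male PBS arrays.

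The genes of mitosis formed the largest block, with 20 genes that had a probe and 18 that were tested. Of these 18, 12 were detected on all 15 arrays. Among the 12 the median male log2 fold change was 0.58, 11 had a higher mean in meth hearts, 9 of them at an unadjusted p of at most 0.05, and the arrays did not overlap in 10. Among all 12622 genes so detected, 43% had a higher mean, 821 were higher at that unadjusted p by limma and 5.47% did not overlap. Promoters of such genes commonly carry CCAAT boxes, which the factor NF-Y binds, and a cell cycle homology region (CHR) through which the DREAM and MuvB complexes repress and then activate them. The windows of 5 genes whose male values are described next are shown here because all 5 had higher means in male meth hearts, each from 150 bases before to 30 bases after the RefSeq transcription start, in the direction of transcription and on build GRCm38.p6, with CCAAT boxes, CHRs and E2F sites in capitals. Bub1b lies on the plus strand at chr2:118598061-118598240, Cdk1 on the minus strand at chr10:69352883-69353062, Ccnb2 on the minus strand at chr9:70421525-70421704, Top2a on the minus strand at chr11:99024160-99024339 and Mki67 on the minus strand at chr7:135716350-135716529.
Bub1b: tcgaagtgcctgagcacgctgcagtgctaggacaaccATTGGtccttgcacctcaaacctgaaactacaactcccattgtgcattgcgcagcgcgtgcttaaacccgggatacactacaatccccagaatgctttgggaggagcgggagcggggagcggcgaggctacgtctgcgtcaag
Cdk1: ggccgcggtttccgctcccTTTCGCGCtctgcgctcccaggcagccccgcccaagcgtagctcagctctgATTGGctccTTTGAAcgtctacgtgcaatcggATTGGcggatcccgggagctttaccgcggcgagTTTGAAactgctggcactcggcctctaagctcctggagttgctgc
Ccnb2: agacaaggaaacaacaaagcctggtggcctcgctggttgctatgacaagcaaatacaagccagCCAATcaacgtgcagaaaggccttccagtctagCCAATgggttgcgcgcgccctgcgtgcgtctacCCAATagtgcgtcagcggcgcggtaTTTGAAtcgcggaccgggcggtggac
Top2a: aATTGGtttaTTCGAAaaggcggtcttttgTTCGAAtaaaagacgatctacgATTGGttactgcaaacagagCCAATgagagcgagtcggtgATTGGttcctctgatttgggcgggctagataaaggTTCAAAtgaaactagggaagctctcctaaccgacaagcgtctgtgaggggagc
Mki67: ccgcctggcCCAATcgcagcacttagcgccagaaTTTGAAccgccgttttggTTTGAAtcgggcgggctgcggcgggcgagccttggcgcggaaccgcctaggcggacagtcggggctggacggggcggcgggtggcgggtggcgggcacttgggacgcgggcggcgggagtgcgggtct
The letters searched were CCAAT for the CCAAT box, TTTGAA and TTCGAA for the CHR, and TTTCCCGC, TTTCGCGC, TTTGCCGC and TTTGGCGC for the E2F site, on both strands, so that a CCAAT box on the other strand reads ATTGG. No matches of different motifs overlapped in the printed windows. Cdk1 held 2 CHRs, 2 CCAAT boxes and an E2F site, Ccnb2 held 3 CCAAT boxes in a row and a CHR just after the start, and Bub1b held 1 CCAAT box and no match to the other letters. Of the 16 windows of 15 mitosis genes in the RefSeq table, 87.5% held a CCAAT box and 56.2% a CHR, where the shares over all 32851 promoter windows of this length were 27% and 11.1%. An E2F site stood in 33.3% of the 12 windows of replication genes and in 6.25% of the mitosis windows, against 1.51% of all. These windows include those of Rrm2 and Prc1, which had no probe. The mitosis windows count Prc1 more than once, in overlapping windows that hold the same CCAAT box and the same CHR. These matches describe letters and are no measure of binding.

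Bub1b encodes BubR1, the spindle checkpoint kinase that holds back anaphase until every chromosome is attached. Its level was -4.61, -5.01, -4.99 and -5.42 in the male PBS hearts and -3.78, -3.68, -3.77 and -4.05 in the male meth hearts, with the trial 1 arrays first in each series. All 4 meth hearts were above all 4 PBS hearts, and the meth hearts lay within a narrower range. The log2 fold change was 1.18 ± 0.18 (standard error), or 2.27-fold, with an adjusted p of 0.00863 by limma, with 1.08 within trial 1 alone and 1.29 within trial 2 alone. The probe was dim, with a mean processed signal of 19.9, and it was well above background on 2 of the 4 male PBS arrays and on all 4 male meth arrays. With background correction by normexp in place of the scanner's own background subtraction, the log2 fold change was 0.23 (adjusted p = 1.00 by limma). That setting also adds an offset of 50 to every signal, which by itself shrinks the log2 differences of a probe this dim. With the replicate number as a block it was 1.18 at an adjusted p of 0.0506 by limma, just outside the threshold.

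Cdk1, the kinase that starts mitosis, read -5.73, -4.56, -4.40 and -5.64 in male PBS and -4.10, -4.40, -3.35 and -4.09 in male meth hearts. The lowest meth heart lay level with the highest PBS heart, and 2 of the 4 PBS arrays were not well above background. The log2 fold change of 1.10 ± 0.35 had an adjusted p of 0.192. Ccnb2, cyclin B2 and a partner of Cdk1, read -2.00, -2.06, -1.99 and -2.77 in male PBS and -1.59, -1.48, -1.35 and -1.49 in male meth hearts. Here no arrays overlapped, the lowest PBS value stood apart from the other 3, and the log2 fold change of 0.73 ± 0.22 had an adjusted p of 0.169. Ccna2, cyclin A2, which acts in S phase and at mitotic entry, had a log2 fold change of 0.68 ± 0.21 with an adjusted p of 0.177 and no overlap between the arrays.

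Of the 11 tested genes of the spindle and of chromosome segregation, 7 were detected on all 15 arrays. All 7 had higher means in male meth hearts, and in 6 the arrays did not overlap, where the shares over all genes so detected were 43% and 5.47%. Tpx2, which nucleates spindle microtubules and activates Aurora A, read -4.83, -5.20, -4.54 and -4.96 in male PBS and -4.20, -4.16, -3.71 and -3.96 in male meth hearts. Every meth heart was above every PBS heart, by a log2 fold change of 0.88 ± 0.26 (adjusted p = 0.17). Pbk, a mitotic protein kinase, read -5.12, -4.49, -4.81 and -6.83 in male PBS and -4.18, -4.46, -3.43 and -4.07 in male meth hearts. The log2 fold change was 1.28 ± 0.47 (adjusted p = 0.269), with 0.48 within trial 1 and 2.07 within trial 2. Of the 4 male PBS arrays 2 were not well above background, among them the lowest, so these values are uncertain. For Kif11, a spindle motor, and Aurkb, the kinase of the chromosomal passenger complex, no fold is given in males, since neither was well above background on a male PBS array. The other members of this group ran from 0.28 for Cenpf, a kinetochore protein, to 0.66 for Nusap1, a spindle microtubule protein, none with an adjusted p at or under 0.05. Plk1, a kinase of mitotic entry and exit, was at 0.64 ± 0.20, and Birc5 (survivin, of the passenger complex) was at 0.60 ± 0.25.

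The spindle checkpoint and the anaphase-promoting complex made up 4 tested genes. Besides Bub1b, the arrays did not overlap for Ube2c, the ubiquitin-conjugating enzyme of that complex, with -2.32, -2.41, -2.02 and -2.39 in male PBS and -1.81, -1.49, -1.71 and -1.95 in male meth hearts. The lowest meth heart was only slightly above the highest PBS heart, and the log2 fold change of 0.55 ± 0.20 had an adjusted p of 0.269. Cdc20, the activator of the complex, was at 0.42 ± 0.18 with no overlap. Bub1, the partner kinase of the checkpoint, was the mitotic gene with a lower mean in male meth hearts, at -0.17 ± 0.25, and its second tested probe, detected on 6 arrays, was at 0.61, so its probes disagreed in sign.

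**Figure D2:**
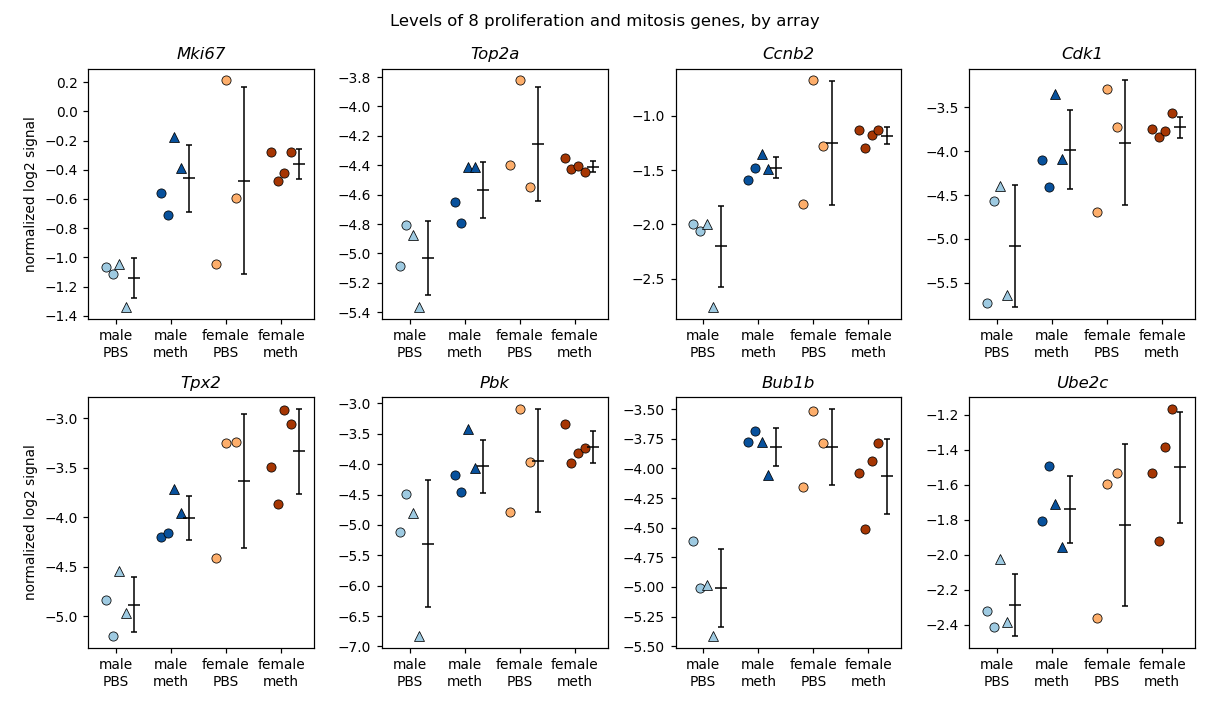
Normalized log2 signal of 8 proliferation and mitosis genes on each of the 15 arrays (circles: trial 1, triangles: trial 2), with a black bar for the group mean ± SD. In all 8 genes the male PBS hearts have the lowest mean, and the female PBS hearts spread over a wider range than the female meth hearts for Mki67, Ccnb2, Cdk1 and Pbk.

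Of the proliferation markers and their regulators, Mki67, the classical marker of cycling cells, read -1.07, -1.12, -1.05 and -1.34 in male PBS and -0.56, -0.71, -0.17 and -0.38 in male meth hearts. The arrays did not overlap and the log2 fold change was 0.68 ± 0.21 (adjusted p = 0.18), and a second probe gave 0.84 (adjusted p = 0.0813). Top2a, the topoisomerase that untangles sister chromatids, read -5.09, -4.81, -4.88 and -5.37 in male PBS and -4.65, -4.79, -4.41 and -4.41 in male meth hearts, and the gap between the groups was narrow. Its log2 fold change was 0.47 ± 0.16 with an adjusted p of 0.239, and 2 of the 4 male PBS arrays were not well above background. Foxm1, which activates the mitotic genes, was at 0.21 ± 0.15, and E2f1 was at 0.30 ± 0.23, both with overlapping arrays. A second E2f1 probe, detected on 12 arrays, was at 0.51 (adjusted p = 0.112) with no overlap, so the probes of E2f1 disagreed on that.

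The 12 genes of DNA replication and nucleotide supply showed smaller differences, with a median male log2 fold change of 0.22. All 12 were detected on every array. Of these, 10 were above 0 and 4 had male meth arrays all above the male PBS arrays. The shares over all genes so detected were 43% and 5.47%. Mcm5, a subunit of the replicative helicase, read -1.59, -1.61, -1.68 and -1.78 in male PBS and -1.24, -1.31, -1.19 and -1.33 in male meth hearts. Each group was tight, so that a log2 fold change of 0.40 ± 0.13 separated the arrays fully, with an adjusted p of 0.206. Cdt1, which loads the helicase, was at 0.32 ± 0.15 and ran from -0.79 to -0.42 in male PBS and from -0.35 to -0.11 in male meth hearts. Tk1 (thymidine kinase) was at 0.32 ± 0.09 and Mcm4 at 0.19 ± 0.15, also with no overlap, while Pcna, the polymerase clamp, was at -0.02 ± 0.07. Gmnn (geminin), the inhibitor of Cdt1, was at -0.14 ± 0.09, the lowest of the 12.

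The G1 and S phase cyclins did not move as a block, with a median of 0.08 over 5 tested genes. Ccne1, cyclin E1, read -0.80, -0.87, -1.15 and -0.87 in male PBS and -0.54, -0.49, -0.64 and -0.64 in male meth hearts, with no overlap and a log2 fold change of 0.34 ± 0.09 (adjusted p = 0.123). It passed the threshold with the slide as a block (adjusted p = 0.0413 by limma), with the scan session as a block (adjusted p = 0.027) and with the trial of the source field (adjusted p = 0.0419). Its second tested probe, detected on 8 arrays, was at -0.18. Ccne2, cyclin E2, was at -0.33 ± 0.22 and its arrays overlapped. Ccnd2 and Ccnd3, the D cyclins that couple growth signals to the cycle, were at 0.23 ± 0.10 and 0.08 ± 0.07, and 1 of the 3 Ccnd2 probes had arrays that did not overlap. Cdk4, their kinase, was at 0.03 ± 0.10.

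The kinase inhibitors had a median male log2 fold change of -0.02 over 4 tested genes. Cdkn1a (p21), the inhibitor that p53 induces, read -0.59, -0.55, 0.40 and 0.47 in male PBS and -0.59, -0.67, -0.27 and -0.61 in male meth hearts. The 2 trial 2 PBS hearts were high and all other male hearts were low. In the pooled fit the log2 fold change was -0.46 ± 0.15 (adjusted p = 0.21), while within trial 2 Cdkn1a fell by 0.87 on the log2 scale (adjusted p = 0.029 by limma, where 0.45% of all genes passed) and within trial 1 it was at -0.06. The PBS hearts of trial 2 were above those of trial 1 by 1.01 ± 0.14 (adjusted p = 0.0243, where 0.401% of all genes passed), and the difference between the responses of the trials was -0.81 ± 0.20, with an adjusted p of 0.843 and an unadjusted p of 0.00194 by limma. Cdkn1b (p27) was at 0.02 ± 0.08 and Cdkn1c (p57) at -0.06 ± 0.08 in males. Cdkn2c (p18), an inhibitor of Cdk4, was at 0.19 ± 0.12.

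Most members had a higher mean in meth hearts in each male trial. Trial 1 gave a members' median log2 fold change of 0.27 and trial 2 one of 0.39, 36 of 43 members were above 0 in each, and 34 were above 0 in both. Of all 14217 genes, 6851 were above 0 in trial 1, 6229 in trial 2 and 4026 in both. For the 12 mitotic genes detected on all arrays the medians were 0.48 and 0.55. In both trials 11 of them were above 0, against 3440 of all 12622 genes so detected. No member had a response that differed between the trials at an adjusted p of at most 0.05 by limma, against 0% of all genes, and at an unadjusted p of at most 0.05 there was 1, Cdkn1a, against 4.22%. In trial 1 a male meth and a male PBS heart with the same number shared a slide. The median member difference within slide 1 was 0.30 and within slide 2 it was 0.21, and within slide 3, which held the trial 2 hearts, it was 0.39.

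In female hearts the meth and PBS values overlapped for every tested member but Cdkn1c. No member was past the adjusted threshold by limma, against 0.443% of all genes, and the members' median log2 fold change was 0.09, against 0.03 over all genes, with 32 of 43 above 0 where 58.6% of all genes were. At an unadjusted p of at most 0.05, 0 members were higher and 1 was lower, where the shares over all genes were 4.44% and 3.38%, and the methods' t-test gave 5 in its paired form, 3 of them higher, and 2 in its unpaired form, 0 of them higher, where the shares over all genes were 8.89% and 6.4%. In no member was every female meth array above every female PBS array (4.21% of all genes), and in 1 member, Cdkn1c, every meth array was below (2.79%). Cdkn1c read 2.33, 2.26 and 2.18 in female PBS and 2.14, 2.07, 1.95 and 2.02 in female meth hearts, a log2 fold change of -0.21 ± 0.09 with an adjusted p of 0.348. Second probes were at -0.052 for Ccnd2 where the probe used was at 0.13, at 0.046 for E2f1 where it was at -0.20 and, on a probe detected on 3 arrays, at 0.59 for Cenpe where it was at -0.049, so these disagreed in sign in females. A second Cenpf probe, at -0.38, had every female meth array below every female PBS array.

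For Mki67, Ccnb2 and Cdk1, though not for every member, the female PBS hearts spanned the female meth hearts. In replicate order, Mki67 read -1.05, 0.22 and -0.59 in female PBS and -0.28, -0.48, -0.42 and -0.27 in female meth hearts. The meth hearts were close together, while the PBS group held both the lowest and the highest of the 7 values. The same order held for Ccnb2, at -1.81, -0.67 and -1.28 in PBS and -1.13, -1.29, -1.18 and -1.13 in meth hearts, and for Cdk1, at -4.69, -3.29 and -3.73 in PBS and -3.75, -3.83, -3.78 and -3.56 in meth hearts. Bub1b did not follow that order, since its lowest value was that of a meth heart. It read -4.15, -3.52 and -3.78 in female PBS and -4.04, -4.51, -3.94 and -3.78 in female meth hearts, and its female log2 fold change was -0.25 ± 0.19 (adjusted p = 0.729 by limma). The median member difference between meth and PBS was 0.32 on slide 1, which held PBS replicate 1, -0.29 on slide 2, which held PBS replicate 2, and 0.12 on slide 4, which held PBS replicate 3. For the mitotic genes these medians were 0.80, -0.55 and 0.13. Without PBS replicate 2, 7 members had every female meth array above every PBS array (6.6% of all genes in that setting), and without PBS replicate 1 the members' median was -0.03. In females the arrays of the bright slide stood apart for Bub1, at 0.19, 0.21 and 0.33 on these 3 arrays and at -0.83 to -0.49 on the other 4.

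**Figure D3:**
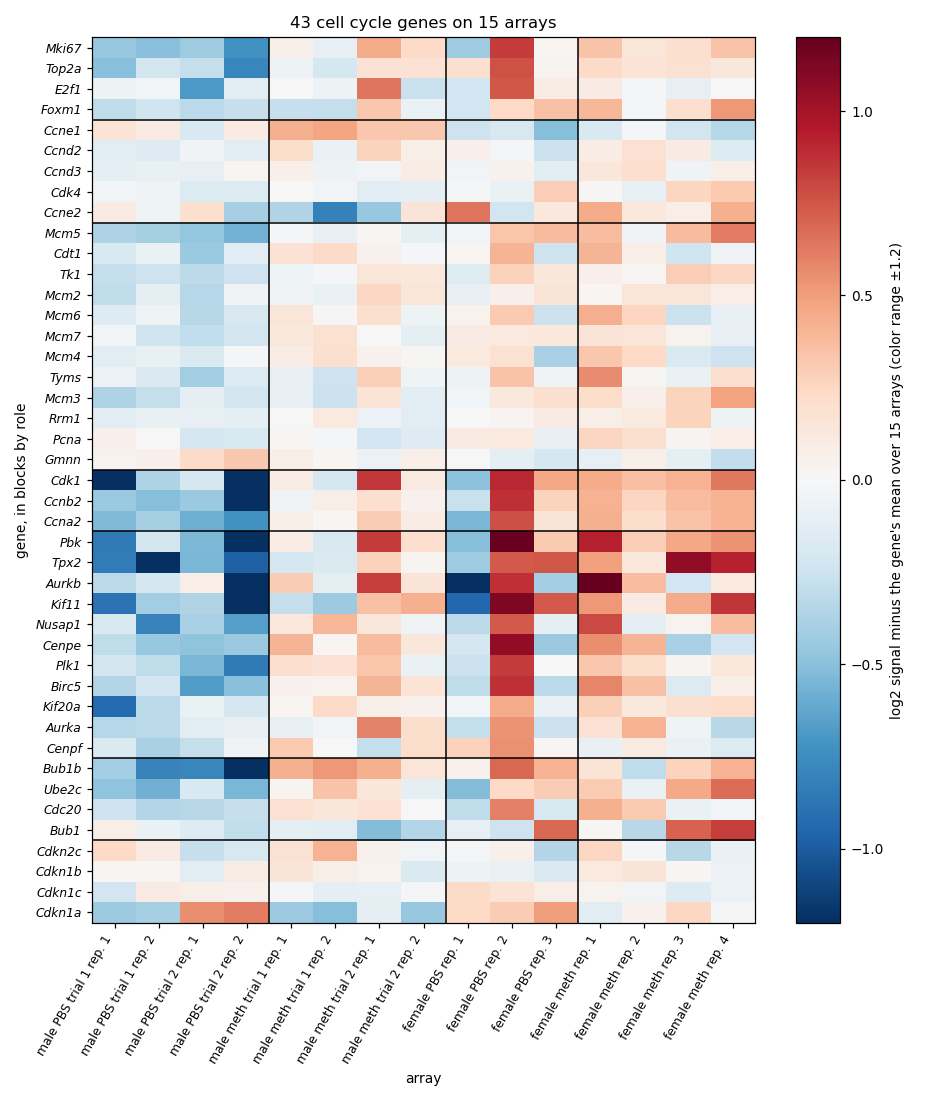
Level of the 43 tested genes (rows, in blocks by role) on each of the 15 arrays (columns, in blocks by group), as log2 signal minus the gene's mean over the 15 arrays, with values past ±1.2 drawn in the end color. The mitotic rows are mostly blue in the 4 male PBS hearts, mostly near white to red in the male meth and female meth hearts, and split between blue for female PBS replicate 1 and red for female PBS replicate 2.

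The difference between the male and the female response was tested directly. No member passed the adjusted threshold by limma, against 0.155% of all genes, and 5 members had a larger response in males at an unadjusted p of at most 0.05, against 3.59% of all genes, and 0 a smaller one, against 4.54%. These were Bub1b, Cenpf, Mcm7 (a helicase subunit), Top2a and Plk1. Bub1b had the largest difference, 1.43 ± 0.26 with an adjusted p of 0.0708. The members' median difference was 0.26, against -0.04 over all genes. For Cenpf, which was at 0.28 in males and -0.34 in females, the difference was 0.62 ± 0.21 with an adjusted p of 0.471.

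The PBS hearts of the sexes were compared in the same way. In this fit, which carries a term for the trial, 39 of 43 members had a difference (male minus female) below 0 and the median was -0.39, against 0.01 over all genes, of which 52.4% were higher in males. No member was past the adjusted threshold by limma, against 0.549% of all genes, and 19 were lower and 1 higher at an unadjusted p of at most 0.05, against 6.89% and 8.43%. In 13 members every male PBS array was below every female PBS array (7.99% of all genes), and in 2, Ccne1 and Gmnn, above (8.61%). The log2 difference was -1.04 ± 0.21 for Bub1b (adjusted p = 0.0591), -1.40 ± 0.31 for Tpx2 (adjusted p = 0.0781), -0.81 ± 0.19 for Top2a (adjusted p = 0.0907) and -0.64 ± 0.15 for Mcm5 (adjusted p = 0.0907). Of the 35 members detected on all 15 arrays, 31 had a difference below 0, against 44.4% of all genes so detected. The 12 mitotic genes among them were all below 0, with a median of -0.52. The second probes of Ccne1, Cdkn1b and Cenpe had the opposite sign of the probes used. This comparison and that of meth with PBS in males share the 4 male PBS arrays, so the values of one are not independent of those of the other. In the meth hearts, with 4 arrays against 4, there were 2 members in which every male array was below every female array (7.54% of all genes) and 1, Ccne1, in which every male array was above (4.23%). The 2 lower members were Ccnb2 and Pcna. Sex and slide were not separated for the bright slide, which held only female hearts.

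In the fit over both sexes no member was past the adjusted threshold by limma, against 2.23% of all genes, while 16 were higher and 2 lower at an unadjusted p of at most 0.05, against 7.58% and 5.13%. The median member log2 fold change was 0.18, against 0.005 over all genes. The lowest adjusted p was 0.0905, that of Bub1b at 0.47 ± 0.13, followed by Cdkn1a at -0.39 ± 0.11 (adjusted p = 0.0963) and Ccne1 at 0.23 ± 0.07 (adjusted p = 0.1).

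Further genes of the same processes that were not in the list of 50 were read from longer lists. Of 41 tested further genes of mitosis, 1 was higher past the adjusted threshold in males and 0 were lower, where 1.34% of all genes passed in either direction. Of these 41, 34 had a male log2 fold change above 0, against 44.9% of all genes, and 16 had arrays that did not overlap, against 5.81%. Of the 25 that were detected on all 15 arrays, 0 passed, 21 were above 0 and 10 had arrays that did not overlap. Of all 12622 genes so detected, 82 passed higher and 40 lower, 43% were above 0 and 5.47% did not overlap. Of 35 further replication genes none passed in males and the median was 0.08, and of 34 further regulators none passed and the median was 0.06. In females none of the 3 lists had a gene past the threshold, against 0.443% of all genes. The gene of mitosis was Ckap2l, a spindle protein, which read -5.71, -6.34, -6.26 and -5.85 in male PBS and -4.89, -5.35, -4.61 and -5.04 in male meth hearts (adjusted p = 0.0488). Its probe rose above background on none of the male PBS arrays and on 2 of the 4 male meth arrays, so the levels of both groups are uncertain. Set against the dimmest detected probe of each PBS array, the mean of the 4 male meth arrays was 1.01-fold higher. This is no lower bound, since the mean includes meth arrays at background. Of the 34 regulators, 2 passed in the fit over both sexes, against 2.23% of all genes. E2f7, an E2F family repressor, was at 0.71 ± 0.16 in males and 0.72 ± 0.17 in females, and 0.71 ± 0.11 together (adjusted p = 0.00722), with every meth array above every PBS array in each sex. It read -4.22, -3.25 and -3.61 in female PBS and -2.99, -3.04, -2.90 and -2.96 in female meth hearts. Cdc25b, a phosphatase that activates Cdk1, was at 0.39 ± 0.09 together (adjusted p = 0.0468).

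Markers of other cells were read on the same arrays. Of the ciliated airway markers 2 of 5 tested genes were higher in male meth hearts past the adjusted threshold, with a list median of 0.99. Over all genes 1.34% passed in either direction, and only 3 of the 5 markers were detected on every array. The summed signal of the ciliated list, in multiples of the array's 75th percentile, was 2.28 to 3.75 in male meth and 1.67 to 1.99 in male PBS hearts. For the secretory airway list these sums were 33.0 to 168 and 0.560 to 0.666. In females they overlapped, at 1.17 to 3.88 in meth and 1.66 to 3.11 in PBS hearts. No thymus or B cell marker passed in males. Their list medians were 0.40 and 0.22. Their summed signals were 1.73 to 3.74 and 1.24 to 3.34 in male meth against 1.31 to 2.47 and 1.35 to 1.87 in male PBS hearts. All 7 tested thymus markers had a male log2 fold change above 0, 2 of them at an unadjusted p of at most 0.05 by limma. Of 6 tested B cell markers 5 were above 0, 1 of them at that p. Over all genes 44.9% were above 0 and 7.34% were higher at that p. The defining genes Rag1, Rag2 and Pax5 stayed at background on all male arrays. Red blood cell precursor markers summed to 237 to 747 in male meth and 261 to 316 in male PBS hearts, and endothelial markers to 78.3 to 87.2 and 78.0 to 86.7. Macrophage markers summed to 24.5 and 25.3 in male meth against 23.6 and 22.5 in male PBS hearts of trial 1, and to 21.9 and 20.5 against 17.4 and 17.3 in trial 2. Within each trial the meth sums were the higher ones, and all 7 macrophage markers had a male log2 fold change above 0 with a median of 0.21, none at an unadjusted p of at most 0.05. Fibroblast markers summed to 221 to 278 in male meth and 214 to 262 in male PBS hearts. Their median level was 3.64 on male meth trial 2 replicate 1, against 2.16 to 2.29 on the other male meth arrays and 2.04 to 2.22 on the male PBS arrays, and Col1a1, Col3a1 and Postn were higher on that array than on any other male array. The same array had the highest mitotic median of the male meth hearts, -1.78, against -2.11 to -1.96 on the others. Without it 21 members had every male meth array above every male PBS array, against 7.64% of all genes. The part of any of these cells in the results for the cell cycle genes was not tested.

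**Figure D4:**
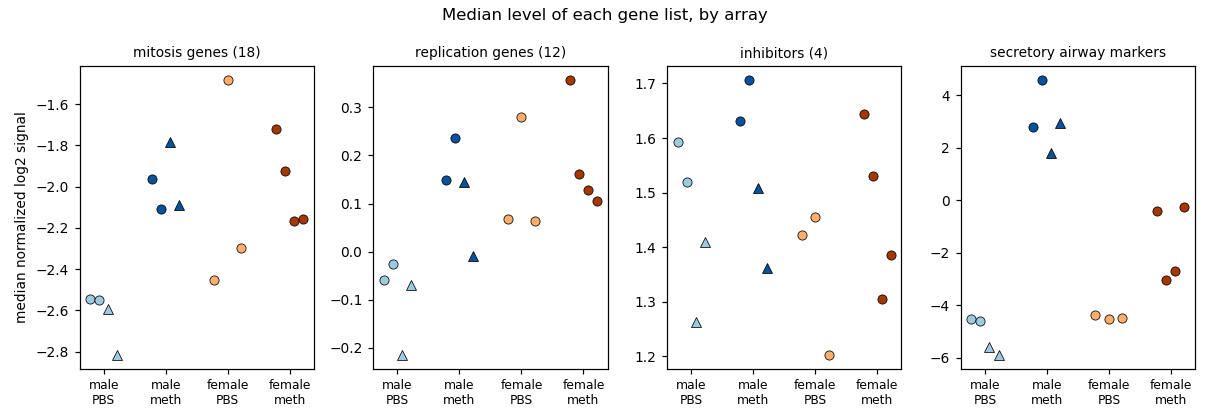
Median normalized log2 signal per array of the mitosis, replication and inhibitor genes and of the secretory airway markers (circles: trial 1, triangles: trial 2), each panel on its own scale. The mitotic median is -2.82 to -2.54 in male PBS and -2.11 to -1.78 in male meth hearts, while female PBS hearts run from -2.45 to -1.48 and female meth hearts from -2.17 to -1.72. It is taken over 18 genes, of which 12 were detected on all 15 arrays, and Aurkb and Kif11 were detected on no male PBS array. The gap between the male groups therefore rests in part on dim genes. For the 12 genes alone the median male log2 fold change was 0.58.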

How the data were processed

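Total RNA of single hearts was labelled with Cy3 and hybridised to Agilent mouse gene expression arrays, 15 in all. The authors deposited Feature Extraction output (version 9.1 per the labels, 10.5.1.1 per the file headers), from which the background-subtracted processed signal intensity and the well-above-background mark, a flag of another kind, were used, and a table of log2 values, which equals the log2 of that intensity plus a constant per array with the same 75th percentile on every array. Its values served as an alternative.

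The log2 intensity minus the array's 75th percentile over non-control probes was averaged over spots of a probe. Accessions were paired with symbols through the RefSeq gene table (26918 of 41174 probes matched). A gene was read from its probe with the highest mean level over the arrays, detected or not, and members whose tested probes disagree in the sign of a fold change within a sex are named. The 28358 probes detected on at least 3 arrays were fitted with limma 3.58.1 (R 4.3.3) with 4 groups and the trial as a term, with Benjamini-Hochberg adjustment over all of them and a threshold of 0.05. No spot was saturated. Precision is set by how few arrays each group has.

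The members and lists were chosen with earlier results of these data known. Genes named were members past the threshold, the 2 members of each role with the largest change in either sex, and Mki67, Top2a, Cdk1, the D cyclins and the Cdkn1 inhibitors. Other genes, such as Plk1 or Pcna, were chosen after their values were seen. Whether replicate numbers mark pairs was checked by how far samples with the same number deviated together. The correlation of their deviations was 0.30, 0.44 and 0.66 for the 3 female pairs. In the male trials it was -0.09 and 0.01. All these pairs, male and female, shared slides. With 2 arrays per male group in each trial, both pairs of a trial give the same value, so it says little on pairing. The main fit paired neither sex, and the fit with the replicate block is an alternative. The female arrays 3 and 4 are of trial 1 by title and of trial 2 by the source field, and both were tried. Promoter windows came from the RefSeq table for GRCm38.p6. Alternatives covered background correction (normexp with an offset of 50), normalization, filter, probe choice, trial, slide, scan session, replicate block, array weights, the methods' t-test and leaving out each array.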

Additional observations from a re-analysis of the deposited data

Results flagged for a closer look

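Among 129 groups of 4 arrays over the tested members, 3 held an array far from the others, where chance alone would flag about 1 in 20. For E2f1 in male PBS hearts the array of trial 2 replicate 1 was at -5.11 while the others lay between -4.55 and -4.45, and the gap was 0.855 of the group's range. For Ccnb2 in male PBS hearts the array of trial 2 replicate 2 was at -2.77 while the others lay between -2.06 and -1.99, and the gap was 0.914 of the range. For Cdkn1c in male PBS hearts the array of trial 1 replicate 1 was at 1.87 while the others lay between 2.15 and 2.20, and the gap was 0.844 of the range. These are 3 different genes and 3 different arrays.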

How the results depend on the processing

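Of 43 tested members, the number past the threshold in males was 1 (Bub1b). It was 0 with normexp (0.232% of all genes), with the filter for detection on all 15 arrays (which leaves out Bub1b, 1.05%), with the replicate block (0.591%) and with trial 1 arrays alone (0.218%). It was also 0 with both forms of the methods' t-test (0% paired and 0.0633% unpaired). It was 2 with the trial of the source field, with slide and with scan session as a block (Ccne1 added each time), where the share of all genes past the threshold went from 1.34% to 1.33%, 2.17% and 2.74%. It was 4 with the male arrays alone (Ccna2, Tpx2 and Cdc20 added, 0.732% of all genes), 6 with array weights (5.61%), and 1 to 4 when 1 array was left out (4 without female PBS replicate 2, 1.14%, and 2 without female PBS replicate 1, 0.928%). The methods' t-test at an unadjusted p of at most 0.05 gave 21 members paired and 24 unpaired in males (17.2% and 15.04% of all genes), and 5 and 2 in females (8.89% and 6.4%). The females stayed at 0 in all 32 alternatives. For both sexes together the number was 0, 1 with the source field trial or slide (2.46% and 3.81% of all genes, against 2.23%), 2 with scan session (4.63%) and 0 to 4 when 1 array was left out (4 without female PBS replicate 2, 1.43%, and 1 without female meth replicate 2, 2.29%). For the difference between sexes it was 0, and 1 (Bub1b) with scan session (0.239% of all genes, against 0.155%). For the PBS hearts of the sexes it was 0, 1 without a trial term, 4 with the source field trial, 6 with array weights (0.457%, 0.978% and 3.78% of all genes, against 0.549%) and 0 to 4 when 1 array was left out (4 without female PBS replicate 1, 0.478%, and 2 without female meth replicate 2, 0.612%). The difference between the trials stayed at 0. The cause of these changes was not tested.

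The members' median male log2 fold change of 0.32 was 0.20 with normexp, whose offset of 50 shrinks differences of dim probes, and 0.27 to 0.36 when 1 array was left out. The female median of 0.09 ran from -0.03 to 0.18 when 1 array was left out. The 20 members without overlap in males became 31 with trial 1 arrays alone, where 2 arrays stand against 2 and 24.6% of all genes did not overlap against 5.81%, and 20 to 25 when 1 array was left out (25 without male meth trial 1 replicate 2, 7.23% of all genes). The 0 members without overlap in females became 1 with quantile normalization and 1 with median centring (4.2% and 8.19% of all genes), and 0 to 7 when 1 array was left out (7 without female PBS replicate 2, 6.6%). In the fit with the replicate block the female meth array 4 has no partner and informs nothing, and beyond Bub1b the block changed no call.

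Directions turned mainly in females. The female log2 fold change of Cdt1, -0.01, was 0.027 with normexp, 0.00062 with quantile normalization, 0.065 with median centring, 0.037 with the source field trial, 0.059 with slide or scan session, 0.021 with the replicate block and in the paired t-test, and -0.16 to 0.16 when 1 array was left out. With normexp the female values of Top2a, Ccnd2 and Bub1b were 0.13, -0.064 and 0.076, and with array weights that of Ccne2 was -0.052. When 1 array was left out, the female values turned without PBS replicate 1 for Mki67 (-0.18 to 0.46), Mcm5 (-0.023 to 0.23), Ccnb2 (-0.21 to 0.36), Cdk1 (-0.22 to 0.48), Tpx2 (-0.089 to 0.50) and Pbk (-0.19 to 0.65), and without PBS replicate 2 for Top2a (-0.30 to 0.066) and Ccne2 (-0.11 to 0.32). In males Cdkn1b was -0.012 with median centring and -0.010 to 0.076 when 1 array was left out, and Cdkn1c was 0.00088 with trial 1 arrays alone. Dim probes limit Bub1b, Cdk1, Pbk, Tpx2 and Top2a, each detected on 2 of the 4 male PBS arrays.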
